A study of Mus musculus with 12 samples.

Results

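Hippocampus was compared with olfactory bulb in mice that lack RasGRF2. The comparison set the 3 arrays titled as GRF2 knockout hippocampus against the 3 titled as GRF2 knockout olfactory bulb, which are 6 of the 12 arrays of the series. The animals were adult C57BL/6 mice. Knockout animals 4, 5 and 6 each gave both tissues, and values are given below in that order. The other 6 arrays held the same tissues of 3 wild-type animals and served as the reference for which regional differences held without RasGRF2. The deleted exons, the number of backcrosses and whether the genotypes were littermates are not stated in the labels used here. Each array measured total RNA of a brain region as a whole, so that in every result below fewer cells of a type and less RNA per cell cannot be told apart. The values are log2 intensities for 19938 genes, and a regional difference is the mean log2 intensity in hippocampus minus that in bulb (1 on this scale is a 2-fold difference).

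The hippocampus is built largely from glutamatergic neurons of pallial origin, the granule neurons of the dentate gyrus and the pyramidal neurons of the CA fields. The olfactory bulb is dominated by GABAergic granule and periglomerular neurons of subpallial origin, which relay with glutamatergic mitral and tufted cells that receive the axons of olfactory sensory neurons. Both regions take up neurons born in the adult brain. RasGRF2 is a calcium-regulated guanine nucleotide exchange factor of Ras and Rac that is found at neuronal synapses, where it couples glutamate receptors to the ERK pathway.

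The knockout arrays were alike within each tissue, with correlations across probe sets of 0.990 to 0.994 in hippocampus and 0.992 to 0.993 in bulb. Array medians were 6.86 to 6.89 in hippocampus and 6.93 to 6.95 in bulb. Tissue lay along principal component 1, with 79.6% of the variance. On component 2, with 5.76%, the hippocampus of animal 6 lay farthest out, at -19.5, and the main counts are therefore given without it as well. Rasgrf2 itself measured 8.64, 8.76 and 8.49 in knockout hippocampus and 9.33, 9.35 and 9.43 in knockout bulb. Wild-type arrays measured 9.32, 9.14 and 9.18 in hippocampus and 9.52, 9.52 and 9.47 in bulb. In each tissue the knockout arrays lay below the wild-type arrays without overlap. In bulb the gap was narrow, with a highest knockout array of 9.43, a lowest wild-type array of 9.47 and means of 9.37 and 9.51. Knockout was not tested against wild type within a tissue here. Signal from the probe set remained in all 6 knockout arrays. Within the knockout, Rasgrf2 was lower in hippocampus than in bulb by a log2 difference of -0.74 (SE 0.077, limma adjusted p = 1.62e-06). In wild type the difference was -0.29, and the difference between the genotypes, -0.45 (95% confidence interval -0.68 to -0.21), did not pass the test (limma adjusted p = 0.33). Which exons the probe set covers was not known here.

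Without RasGRF2 the tissues differed in 7804 of 19938 genes at an adjusted p under 0.05 (39.1% of the genes tested). Of these, 3838 were higher in hippocampus (19.2%) and 3966 higher in bulb (19.9%). A difference of at least 2-fold that also passed the test was found for 960 genes (4.81%), 424 higher in hippocampus (2.13%) and 536 higher in bulb (2.69%). At least 4-fold differences numbered 66 towards hippocampus and 102 towards bulb, and at least 8-fold differences 12 and 29. The 3 hippocampus arrays and the 3 bulb arrays did not overlap for any of the 960 genes, against 9743 of all 19938 genes without overlap. Of the 960, 730 differed at least 2-fold within each of the 3 animals. Without the hippocampus of animal 6, 7043 genes passed and 964 did so with at least a 2-fold difference. The balance between the regions depended on scaling: 49.2% of the calls were higher in hippocampus with the deposited values, 62.8% after centring the arrays on their medians (5330 against 3151 genes) and 59.1% after quantile normalization (5096 against 3523). For the 2-fold calls the shares were 44.2%, 50.9% and 47.8%. The median difference of all genes was 0.01, and the median over genes of its standard error was 0.086.

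The genes highest in hippocampus over bulb were Iqgap2, Cabp7, Neurod6, Prdm8 and Crym. Iqgap2, a scaffold protein of the actin cytoskeleton, measured 10.73, 10.73 and 10.78 in hippocampus and 6.57, 6.56 and 6.41 in bulb. The groups were far apart, by 4.24 (SE 0.098, adjusted p = 1.49e-13), an 18.9-fold difference. Cabp7, a calcium-binding protein of the calmodulin family, measured 10.53, 10.59 and 10.64 against 6.42, 6.51 and 6.28, a difference of 4.19 (SE 0.077). Neurod6, a basic helix-loop-helix factor of pallial excitatory neurons, stood at 10.29, 10.39 and 10.07 in hippocampus and at 6.36, 6.31 and 6.44 in bulb. Its difference was 3.88 (SE 0.10), with no overlap. Prdm8, a PR-domain repressor, measured 9.77, 9.78 and 9.51 in hippocampus and 6.24, 5.93 and 5.40 in bulb, where animal 6 was the lowest, and differed by 3.83 (SE 0.15). Crym, a cytosolic binding protein of thyroid hormone, differed by 3.66 (SE 0.092). Behind them came the peptide gene Grp (3.44), the neuropeptide Y receptor gene Npy2r (3.30), the inositol trisphosphate kinase gene Itpka (3.29), the dentate homeobox gene Prox1 (3.25) and Enc1 (3.22), which encodes an actin-binding kelch protein. The desmosomal gene Pkp2 (3.08), the secreted synaptic protein gene C1ql3 (3.02), lipoprotein lipase, Lpl (2.97), the zinc-finger repressor Zbtb18 (2.97) and the calcium sensor hippocalcin, Hpca (2.93), completed the 15 largest differences.

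In the opposite direction the leading genes were Lgr5, Cpa6, Frmd7, Eomes and Th. Lgr5, a receptor for R-spondins that strengthens Wnt signals, measured 11.20, 11.09 and 11.23 in bulb and 6.47, 6.54 and 6.67 in hippocampus. It was 24.5-fold higher in bulb, a log2 difference of -4.61 (SE 0.079, adjusted p = 1.24e-14). Cpa6, a secreted carboxypeptidase, measured 9.78, 9.83 and 9.65 in bulb against 5.18, 5.07 and 5.22 in hippocampus, a difference of -4.59 (SE 0.089). Frmd7, a FERM-domain protein, followed at -4.53 (SE 0.085). Eomes, the T-box factor of mitral and tufted cells, stood at 9.83, 10.01 and 10.14 in bulb and at 5.51, 5.61 and 5.34 in hippocampus, a difference of -4.51 (SE 0.11). Tyrosine hydroxylase, Th, the rate-limiting enzyme of dopamine synthesis, measured 11.18, 11.04 and 11.10 in bulb and 6.66, 6.49 and 6.74 in hippocampus. The tissues differed by -4.47 (SE 0.11), a 22.2-fold difference with no overlap. The remainder of the 15 were the homeobox genes Pbx3 (-4.44), Meis1 (-3.50) and Meis2 (-3.48), the mitral cell cadherin gene Cdhr1 (-4.00), the VIP receptor gene Vipr2 (-4.00), the G protein subunit gene Gng4 (-3.89), the matrix gene Abi3bp (-3.89), secretagogin, Scgn (-3.48), Shisa3 (-3.42) and the muscarinic receptor gene Chrm2 (-3.35).

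**Figure D1:**
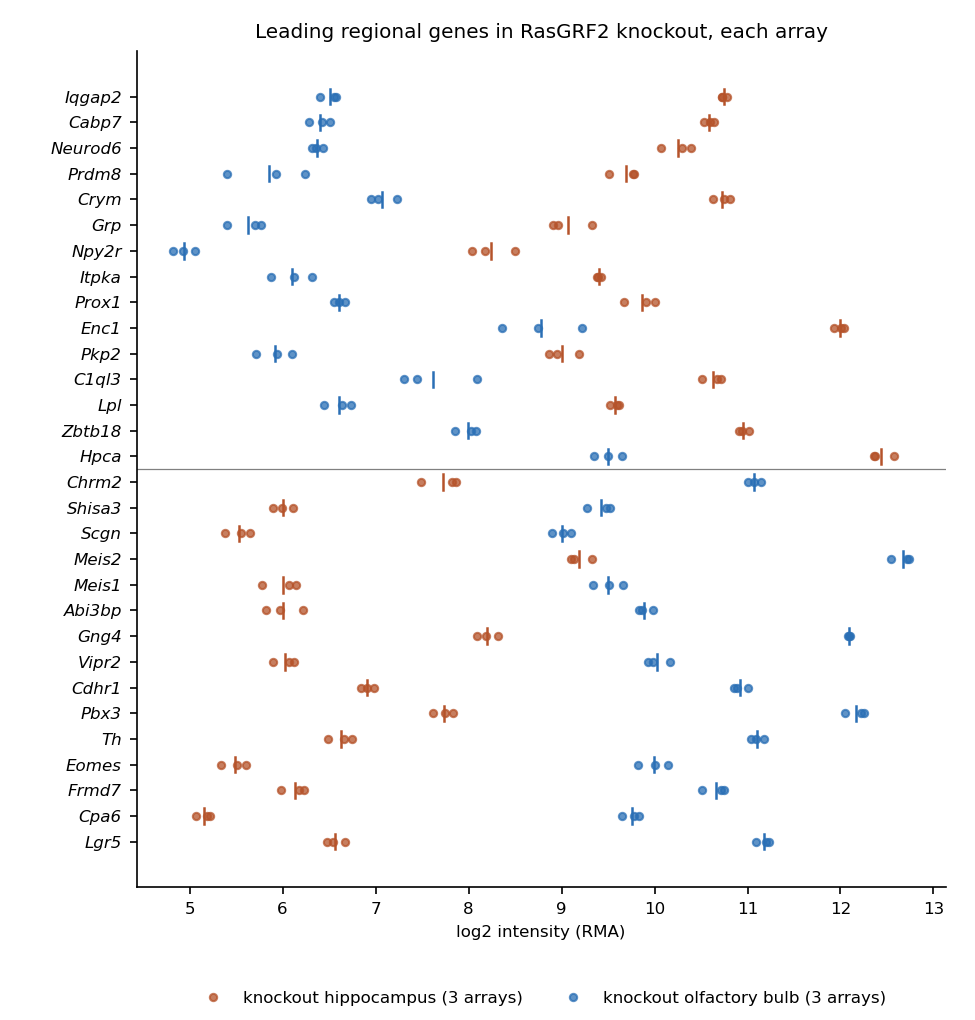
RMA log2 intensity (horizontal axis) of the 15 genes with the largest regional difference in each direction, with 1 point for each of the 3 knockout hippocampus arrays and the 3 knockout bulb arrays and a vertical bar for each group mean. For every gene shown, as for all 960 genes that passed at 2-fold, the hippocampus and bulb points do not overlap. The genes run from Iqgap2 with a log2 difference of 4.24 at the top to Lgr5 with -4.61 at the bottom.

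Promoters of 4 leading genes are printed because they hold an E-box motif bound by basic helix-loop-helix factors such as the Neurod proteins; they were chosen after the motif matches were seen. Each runs 5′ to 3′ on the gene's strand from 250 bases before to 50 bases after the RefSeq start, from assembly GRCm38.p6. Capitals mark CAGATG or CAGCTG on either strand, so that CATCTG is CAGATG read on the other strand, and CAGCTG is its own reverse complement. Prox1 lies at chr1:190170778-190171077 (minus strand; the first of 2 promoters listed), Prdm8 at chr5:98180619-98180918 (plus strand), Iqgap2 at chr13:95891873-95892172 (minus strand) and Cdhr1, which is higher in bulb, at chr14:37098298-37098597 (minus strand).
Prox1: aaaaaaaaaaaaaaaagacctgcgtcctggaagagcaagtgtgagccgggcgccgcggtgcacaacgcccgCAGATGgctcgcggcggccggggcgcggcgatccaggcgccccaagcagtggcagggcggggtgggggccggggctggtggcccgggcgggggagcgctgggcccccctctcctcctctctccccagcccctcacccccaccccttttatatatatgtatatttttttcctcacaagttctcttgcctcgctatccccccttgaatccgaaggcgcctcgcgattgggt
Prdm8: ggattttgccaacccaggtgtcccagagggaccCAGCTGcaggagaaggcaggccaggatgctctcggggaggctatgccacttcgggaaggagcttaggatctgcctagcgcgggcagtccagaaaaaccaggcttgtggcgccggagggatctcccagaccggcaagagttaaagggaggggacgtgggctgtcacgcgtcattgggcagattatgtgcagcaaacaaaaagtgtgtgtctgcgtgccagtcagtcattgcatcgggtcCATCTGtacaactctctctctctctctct
Iqgap2: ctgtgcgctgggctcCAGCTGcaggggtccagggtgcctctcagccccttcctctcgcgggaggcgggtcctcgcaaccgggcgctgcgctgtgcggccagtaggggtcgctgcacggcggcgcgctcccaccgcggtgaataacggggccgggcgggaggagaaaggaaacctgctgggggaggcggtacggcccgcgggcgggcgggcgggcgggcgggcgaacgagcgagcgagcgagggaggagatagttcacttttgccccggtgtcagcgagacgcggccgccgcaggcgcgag
Cdhr1: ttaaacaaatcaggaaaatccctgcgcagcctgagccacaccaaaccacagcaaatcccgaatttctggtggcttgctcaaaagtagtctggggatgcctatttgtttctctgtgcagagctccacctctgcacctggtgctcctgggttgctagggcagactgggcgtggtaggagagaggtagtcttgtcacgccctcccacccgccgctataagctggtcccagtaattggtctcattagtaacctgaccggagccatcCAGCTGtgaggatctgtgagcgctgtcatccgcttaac
Over the 15614 genes with a listed promoter, the first of each gene held CAGATG in 14.1% and CAGCTG in 15.9%. Of the 316 promoters of genes at least 2-fold higher in hippocampus, CAGATG was in 12.03% and CAGCTG in 13.9%. Among the 406 of genes at least 2-fold higher in bulb the shares were 12.3% and 16.5%. The homeodomain core TAATTA was in 4.33% of all promoters, 3.16% of the hippocampal set and 3.94% of the bulb set. The shares in both regional sets lay near or below those of all promoters, and mean GC content was 57.0% over all promoters, 62.0% in the hippocampal set and 60.6% in the bulb set.

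Dentate granule and pyramidal neuron genes were higher in hippocampus. Of 15 dentate granule neuron markers measured, 12 were higher in hippocampus and 3 in bulb, and 10 were higher in hippocampus by at least 2-fold, with none by that much in bulb. Their median difference was 1.31 in knockout and 1.48 in wild type. Prox1, which keeps granule neuron identity, measured 10.01, 9.90 and 9.67 in hippocampus and 6.60, 6.67 and 6.55 in bulb. The difference of 3.25 (SE 0.10, adjusted p = 2.76e-12) was 9.53-fold, and the tissues did not overlap. Calbindin, Calb1, a calcium buffer of granule neurons, measured 11.02, 11.09 and 10.83 against 8.11, 8.70 and 8.21 and differed by 2.64 (SE 0.14). Lct (2.67), the desmosomal gene Dsp (2.35) and the synaptic organiser C1ql2 (2.01) were also over 4-fold higher. The 3 members higher in bulb were Stxbp6, named after its values were seen, at -0.63, Dock10 at -0.59 and Marcksl1 at -0.34.

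The list of 17 CA pyramidal neuron genes had 11 higher in hippocampus and 4 in bulb, with a median of 0.90 in knockout and 0.86 in wild type. At least 2-fold higher in hippocampus were 7, among them the kainate receptor subunit Grik4 (2.18, SE 0.089), Rgs14, a brake on G protein signalling of CA2 neurons (1.89, SE 0.093), and Mpped1 (1.73, SE 0.10). Grik4 measured 9.866, 10.004 and 9.812 in hippocampus and 7.66, 7.82 and 7.66 in bulb, with no overlap. Cacng5, an auxiliary subunit of AMPA receptors, went the other way. It measured 7.72, 7.98 and 7.94 in hippocampus and 10.79, 10.78 and 10.71 in bulb, a difference of -2.88 (SE 0.10).

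Among 18 transcription factors of pallial glutamatergic neurons, 14 were higher in hippocampus and 3 in bulb, with a median of 1.09 in knockout and 1.08 in wild type. By at least 2-fold, 10 were higher in hippocampus and 2 in bulb. Besides Neurod6, Prdm8 and Zbtb18, these included Fezf2, a selector of deep-layer cortical neurons, at 9.02, 9.08 and 9.37 in hippocampus and 7.005, 6.943 and 6.945 in bulb. Fezf2 differed by 2.19 (SE 0.12) and the mineralocorticoid receptor Nr3c2 by 1.43 (SE 0.068). Cux1, a homeobox gene of upper cortical layers, was at least 2-fold higher in bulb, at -1.50 (SE 0.064), as was the neuronal MADS-box factor Mef2c, named after its values were seen, at -1.27. The same 12 of 12 genes that passed at 2-fold in wild type did so in knockout, in the same direction. Among all genes that passed at 2-fold in wild type, 85.6% did.

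Genes of the forebrain excitatory synapse were mostly higher in hippocampus: 18 of 23 were, 1 was higher in bulb, and 10 were at least 2-fold higher in hippocampus, with a median of 0.93 in knockout and 0.73 in wild type. Hpca measured 12.36, 12.57 and 12.37 in hippocampus and 9.50, 9.65 and 9.35 in bulb. Nptx1, a neuronal pentraxin that gathers AMPA receptors, differed by 2.20 (SE 0.089), dendrin, Ddn, by 1.78 (SE 0.092) and neuritin, Nrn1, by 1.76 (SE 0.082). The vesicular glutamate transporter Slc17a7, named after its values were seen, differed by 0.77 (SE 0.064). Of 13 genes of thalamus and neocortex, listed for neighbouring tissue in the hippocampal sample, 2 were higher in hippocampus and 7 in bulb. The 2 were Fezf2, counted above among the pallial factors, and the protein kinase C gene Prkcd (1.14, SE 0.096). The vesicular glutamate transporter Slc17a6, which mitral cells also use, was higher in bulb at -1.45 (SE 0.14). Because the list shares genes with the mitral cell list, comparison with bulb cannot tell how much neighbouring tissue the hippocampal sample held.

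Genes of bulb interneurons were higher in bulb. Of 19 transcription factors of these neurons, 14 were higher in bulb, 1 in hippocampus, and 13 were higher in bulb by at least 2-fold, with a median of -1.98 in knockout and -2.04 in wild type. Dlx1, a subpallial homeobox factor, measured 11.27, 11.07 and 11.20 in bulb and 7.90, 8.03 and 8.01 in hippocampus, a difference of -3.20 (SE 0.075, adjusted p = 1.67e-13). Dlx5, of the same family, measured 10.47, 10.28 and 10.33 in knockout bulb and 7.39, 7.50 and 7.12 in knockout hippocampus. Its difference was -3.02 (SE 0.11) in knockout and -2.34 in wild type, and the genotypes differed by -0.68 (95% confidence interval -1.01 to -0.36), which did not pass the test (adjusted p = 0.241). Pbx3 stood at 12.22, 12.04 and 12.25 in bulb and 7.74, 7.84 and 7.61 in hippocampus. The zinc-finger genes Tshz1 (-3.03, SE 0.10) and Zic1 (-2.55, SE 0.21) were also higher in bulb. All 13 factors that passed at 2-fold in wild type did so in knockout, against 85.6% of all genes that passed at 2-fold in wild type.

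Of 14 genes of GABA synthesis, transport and bulb interneuron types, 10 were higher in bulb and 2 in hippocampus, and 9 were higher in bulb by at least 2-fold, with a median of -1.34. Gad1, which makes GABA from glutamate, measured 12.50, 12.41 and 12.45 in bulb and 10.76, 10.81 and 10.70 in hippocampus, a difference of -1.70 (SE 0.065). Scgn, a calcium sensor of periglomerular and granule neurons, measured 9.10, 8.90 and 9.02 against 5.55, 5.38 and 5.65. Calretinin, Calb2, differed by -2.77 (SE 0.14), the enkephalin precursor Penk by -2.12 (SE 0.089) and the thyrotropin-releasing hormone gene Trh by -3.07 (SE 0.12). Among 8 genes of dopaminergic periglomerular neurons, 5 were higher in bulb, but only Th and the dopamine transporter Slc6a3 (-1.54, SE 0.11) by at least 2-fold, and 1 was higher in hippocampus. The list's median was -0.35.

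Mitral and tufted cell genes were higher in bulb in 9 of 12 cases, each by at least 2-fold, with a median of -1.70 in knockout and -1.88 in wild type. Cdhr1 measured 10.89, 10.85 and 11.01 in bulb and 6.98, 6.90 and 6.85 in hippocampus, with no overlap. Doc2g, a calcium-dependent vesicle protein, differed by -3.17 (SE 0.081), neuromedin B, Nmb, by -2.14 (SE 0.099) and reelin, Reln, by -1.76 (SE 0.074). Tbr1, a T-box factor that mitral cells share with pallial neurons, was higher in hippocampus at 1.17 (SE 0.078); it was named after its values were seen. The same 10 of 10 genes passed at 2-fold in wild type, against 85.0% of all genes that passed at 2-fold in knockout.

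**Figure D2:**
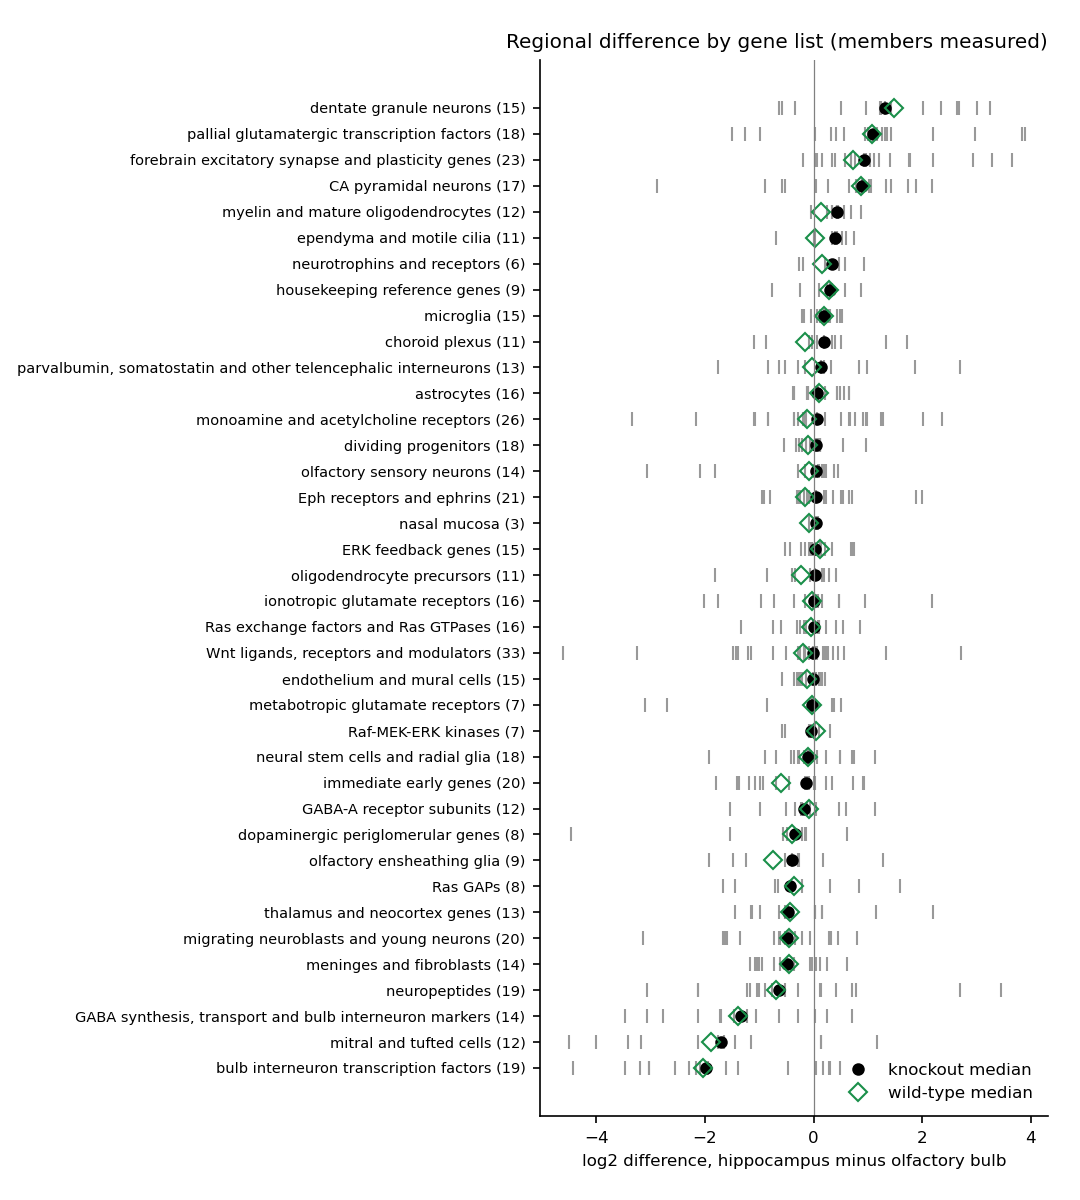
Regional log2 difference in knockout (horizontal axis) for each gene list with at least 3 measured members: grey ticks are members, the filled circle is the list's median in knockout and the open diamond its median in wild type. Dentate, pallial, synaptic and CA lists lie to the right with knockout medians of 0.90 to 1.31, and mitral cell and bulb interneuron lists to the left with medians of -1.34 to -1.98.

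Interneuron classes of the telencephalon were divided. Of 13 such genes 6 were higher in hippocampus and 4 in bulb. Somatostatin, Sst, an inhibitory peptide, measured 11.53, 11.52 and 11.74 in hippocampus and 8.61, 9.29 and 8.79 in bulb, a difference of 2.70 (SE 0.20). Parvalbumin, Pvalb, differed by 1.87 (SE 0.11). Reln, listed here as well, was the member at least 2-fold higher in bulb. Among 19 neuropeptide genes, 5 were higher in hippocampus and 11 in bulb, with 2 and 7 at 2-fold and a median of -0.64. Grp, the gastrin-releasing peptide gene, measured 8.90, 8.96 and 9.33 in hippocampus and 5.76, 5.70 and 5.40 in bulb. Trh, Nmb, Penk and galanin, Gal (-1.23, SE 0.12), were among those higher in bulb.

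Receptor families held members higher in each region, as did all genes, of which 19.2% were higher in hippocampus and 19.9% in bulb. The test was passed by 56.25% of ionotropic glutamate receptor subunits, 85.7% of metabotropic receptors and 58.3% of GABA-A subunits, against 39.1% of all genes. Of 16 ionotropic glutamate receptor subunits, 4 were higher in hippocampus and 5 in bulb; beyond 2-fold were Grik4 towards hippocampus and, towards bulb, the kainate subunit Grik3 (-2.02, SE 0.081) and the AMPA subunit Gria4 (-1.76, SE 0.080). Of 7 metabotropic glutamate receptors, 3 were higher in each region. Grm4, which restrains release presynaptically, measured 10.14, 10.04 and 10.13 in bulb and from 6.91 to 7.07 in hippocampus, a difference of -3.11 (SE 0.079), and Grm8 differed by -2.69 (SE 0.12). Among 12 GABA-A receptor subunits, 3 were higher in hippocampus and 4 in bulb. Gabrb1 (1.13, SE 0.065) and Gabra3 (-1.53, SE 0.10) were the pair beyond 2-fold.

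Of 26 monoamine and acetylcholine receptor genes, 12 were higher in hippocampus and 8 in bulb, 4 of each by at least 2-fold. The test was passed by 76.9%, against 39.1% of all genes. The serotonin receptor Htr4 measured 8.87, 8.81 and 8.72 in hippocampus and 6.63, 6.17 and 6.52 in bulb, a difference of 2.36 (SE 0.11). The dopamine receptor Drd5 (2.01, SE 0.13), the serotonin receptor Htr1a (1.27, SE 0.11) and the nicotinic subunit Chrna7 (1.25, SE 0.073) were also higher in hippocampus. Chrm2 measured 11.069, 11.002 and 11.150 in bulb and 7.48, 7.87 and 7.82 in hippocampus, and the nicotinic subunit Chrna3 differed by -2.17 (SE 0.12). The tissues did not overlap for any of these 6 genes, as for all 960 genes that passed at 2-fold. Of all 19938 genes, 9743 had no overlap.

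Of 33 Wnt ligands, receptors and modulators, 8 were higher in hippocampus and 10 in bulb, 2 and 7 by at least 2-fold. The test was passed by 54.5%, against 39.1% of all genes, and 27.3% also reached 2-fold, against 4.81%. The list's median was -0.006 and changed sign under some alternatives. The R-spondin receptor Lgr6 measured 10.05, 10.05 and 10.09 in bulb and 6.90, 6.68 and 6.88 in hippocampus, a difference of -3.24 (SE 0.079), beside Lgr5. The ligand Wnt5a (-1.43, SE 0.099) and the secreted Wnt antagonist Sfrp1 (-1.40, SE 0.20) were also higher in bulb. Dkk3, a secreted relative of the Dickkopf proteins, was higher in hippocampus at 2.72 (SE 0.089). Among 21 Eph receptors and ephrins, 9 were higher in hippocampus and 7 in bulb (76.2% past the test). Epha7 (2.00, SE 0.080) and Epha4 (1.88, SE 0.065), receptors that guide axons and shape spines, were those beyond 2-fold.

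Ras pathway genes passed the test at shares near that of all genes (39.1%), apart from the GTPase-activating proteins. Of 16 Ras exchange factors and GTPases, 3 were higher in hippocampus and 5 in bulb, with 8 not past the test, and Rasgrp2, a calcium- and diacylglycerol-responsive exchange factor of Rap, was the member beyond 2-fold. It measured 7.92, 8.12 and 8.08 in bulb and 6.71, 6.83 and 6.60 in hippocampus (-1.33, SE 0.12). Rasgrf1, the paralogue of the deleted gene, was named after its values were seen and measured 11.20, 11.24 and 11.04 in hippocampus and 10.77, 10.75 and 10.75 in bulb. Its difference was 0.40 (SE 0.072, adjusted p = 0.000321) in knockout and 0.48 in wild type, and the genotypes differed with a 95% confidence interval of -0.29 to 0.15. All 8 GTPase-activating proteins of Ras passed, 3 towards hippocampus and 5 towards bulb, with Rasal1 at 1.59 (SE 0.088), Rasa2 at -1.67 (SE 0.098) and Rasa3 at -1.45 (SE 0.070). Of 7 Raf, MEK and ERK pathway kinases, 1 was higher in hippocampus and 2 in bulb (42.9%), none by 2-fold. Of 15 feedback genes of ERK signalling, 4 were higher in hippocampus and 3 in bulb (46.7%), none by 2-fold. Of 6 neurotrophins and their receptors, 3 were higher in hippocampus and 2 in bulb (83.3%), none by 2-fold.

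Immediate early genes, which neuronal activity induces, were higher in bulb in 9 of 20 cases and in hippocampus in 4, with 5 beyond 2-fold towards bulb. Npas4, an activity-dependent factor, measured 9.34, 9.65 and 9.09 in bulb and 7.28, 8.03 and 7.37 in hippocampus, a difference of -1.80 (SE 0.20). Nr4a1 (-1.41, SE 0.18), Egr1 (-1.38, SE 0.13), Dusp1 (-1.20, SE 0.14) and Fosb (-1.08, SE 0.21) followed. The list's median was -0.15 in knockout and -0.60 in wild type, and the knockout median ran from -0.32 with array weights to -0.08 after centring the arrays. Its mean level was 8.68, 8.83 and 8.58 in knockout bulb and 8.21, 8.49 and 8.31 in knockout hippocampus, and it was 8.95 to 9.28 in wild-type bulb and 8.25 to 8.63 in wild-type hippocampus. Thus the bulb arrays of the genotypes did not overlap in this mean and the hippocampal arrays did. No member passed the test of a difference between the genotypes' regional differences, and how the animals were handled before sampling was not tested.

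Along the sequence from stem cell to young neuron, the late members differed most. Of 18 genes of neural stem cells and radial glia, 5 were higher in hippocampus and 7 in bulb. Hopx, a marker of quiescent dentate stem cells, was higher in hippocampus (1.13, SE 0.079) and the fatty acid binding protein gene Fabp7, also expressed by ensheathing glia, higher in bulb (-1.92, SE 0.078). Of 18 genes of dividing progenitors, 2 were higher in hippocampus and 4 in bulb, none by 2-fold. The share past the test was 33.3%, against 39.1% of all genes, and 10 of the 18 lay below the mean array median of 6.91 in both knockout tissues. Of 20 genes of migrating neuroblasts and young neurons, 15 were higher in bulb and 4 in hippocampus, with a median of -0.48. Doublecortin, Dcx, the microtubule protein of migrating neurons, measured 11.40, 11.28 and 11.38 in bulb and 8.20, 8.25 and 8.18 in hippocampus, a difference of -3.14 (SE 0.063, adjusted p = 3.54e-14), or 8.84-fold. Cd24a (-1.68, SE 0.11), Dpysl5 (-1.63, SE 0.069), Prokr2 (-1.60, SE 0.10) and Sox4 (-1.35, SE 0.079) were the other 4 beyond 2-fold. The mean level of the list was 9.10 to 9.18 in knockout bulb and 8.49 to 8.52 in knockout hippocampus.

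Glial and vascular genes differed by less. Of 12 myelin genes, 10 were higher in hippocampus and none in bulb, none by 2-fold, with a median of 0.43 in knockout and 0.14 in wild type. Their mean level was 8.79, 9.10 and 9.17 in knockout hippocampus and 8.61, 8.65 and 8.51 in knockout bulb. The hippocampus of animal 4 was the lowest of its group, and the median was 0.20 with array weights and 0.61 without animal 4. Of 16 astrocyte genes, 6 were higher in hippocampus and 3 in bulb, of 15 microglia genes 6 in hippocampus and none in bulb, and of 15 endothelial and mural genes 5 in bulb and none in hippocampus. The shares of microglia (40.0%) and endothelial genes (33.3%) past the test were near the 39.1% of all genes. Centred on array medians, 10 microglia genes were higher in hippocampus and 1 endothelial gene in bulb. None of the members of these 3 lists differed by 2-fold. Of 11 genes of oligodendrocyte precursors 3 were higher in each region, and Lhfpl3, at -1.81 (SE 0.085), was the member beyond 2-fold. Of 11 genes of ependyma and motile cilia, 7 were higher in hippocampus and 1 in bulb, with a median of 0.40 in knockout and 0.02 in wild type. Their mean level was 6.35 to 6.38 in knockout hippocampus and 6.08 to 6.12 in knockout bulb. Wild-type hippocampus spread from 6.10 to 6.36, across its bulb range of 6.17 to 6.25, and no myelin or ependymal gene passed the test of a difference between the genotypes.

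Tissues that border the regions moved with the comparison in part. Of 14 genes of meninges and fibroblasts, 6 were higher in bulb and 1 in hippocampus. The leading members were Fmod (-1.16, SE 0.31), Slc13a4 (-1.08, SE 0.24), Aebp1 (-1.04, SE 0.23) and Slc6a13 (-1.01, SE 0.29). Of 11 genes of choroid plexus, 5 were higher in hippocampus and 2 in bulb, among them Ttr, its abundant transthyretin, at 10.47, 10.90 and 9.73 in hippocampus and 8.43, 9.29 and 8.25 in bulb (1.71, SE 0.51). Kl differed by 1.34 (SE 0.084) and Kcnj13 by -1.10 (SE 0.36). The part of attached meninges or plexus in other differences was not tested. Of 9 housekeeping genes measured, 6 were higher in hippocampus and 2 in bulb, none by 2-fold, with a median of 0.29 in both genotypes.

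**Figure D3:**
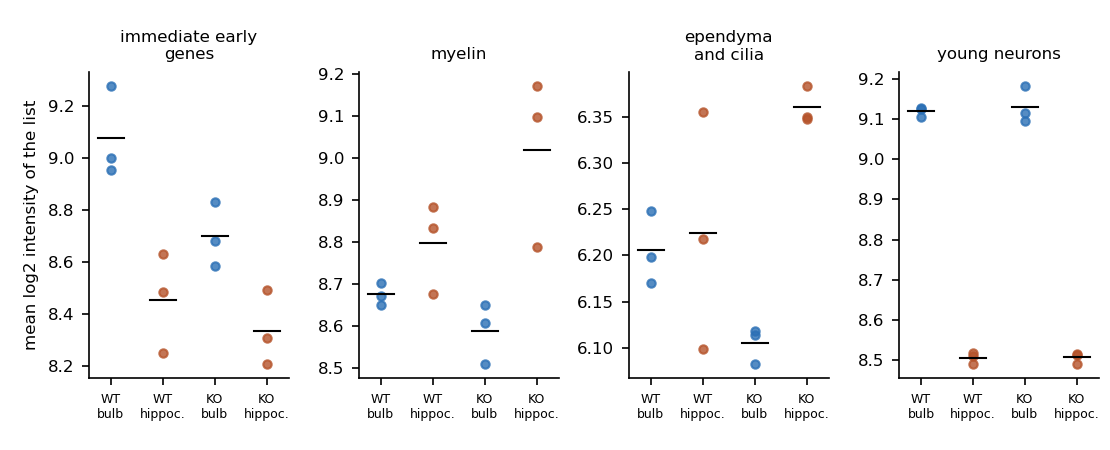
Mean log2 intensity of 4 gene lists (vertical axes, a scale of its own for each panel) on every array, with a point for each of the 3 arrays of a group and a bar for the group mean; WT is wild type and KO knockout. Immediate early genes are higher in bulb in both genotypes, at 8.58 to 8.83 in knockout bulb, while myelin reaches 9.17 in knockout hippocampus and the young neuron list lies between 8.49 and 9.18 with separate tissues.

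Transcripts of olfactory sensory neurons, whose axons end in the bulb, differed for a few genes by much. Of 14 such genes, 4 were higher in bulb and 3 in hippocampus. S100a5, a calcium-binding protein, measured 8.89, 9.03 and 9.46 in bulb and 6.14, 5.94 and 6.09 in hippocampus, a difference of -3.08 (SE 0.16). The olfactory marker protein, Omp, measured 8.80, 8.75 and 9.15 against 7.05, 6.97 and 7.23, a difference of -1.82 (SE 0.11), and Stoml3 differed by -2.10 (SE 0.38). Stoml3 spread from 7.87 to 10.07 in wild-type bulb and from 7.94 to 8.30 in knockout bulb. None of 3 nasal mucosa genes passed, with a mean level of 4.68 to 4.72 in knockout bulb and 4.60 to 4.91 in knockout hippocampus. Of 1027 odorant receptor genes, 68 were higher in bulb and 12 in hippocampus, shares below those of all genes, and 1 was higher in bulb by 2-fold. Of 9 genes of olfactory ensheathing glia, which wrap those axons, 7 were higher in bulb and 1 in hippocampus, with Fabp7, the secreted Wnt antagonist Frzb (-1.49, SE 0.10) and Mybpc1 (-1.24, SE 0.12) towards bulb and the matrix gene Matn2 (1.28, SE 0.12) towards hippocampus. The list's median was -0.40 in knockout and -0.75 in wild type.

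The regional differences of wild type were found again in knockout for most genes. In wild type 8148 genes passed (40.9%), and 6104 of them (74.9%) also passed in knockout in the same direction. By direction this was 82.0% of those higher in hippocampus and 69.6% of those higher in bulb. By at least 2-fold 953 genes passed in wild type (4.78%), 427 towards hippocampus (2.14%) and 526 towards bulb (2.64%). Of these 953, 816 (85.6%) also passed at 2-fold in knockout in the same direction, 355 towards hippocampus and 461 towards bulb, which were 85.0% of the 960 in knockout. Without the 2-fold requirement in knockout, 952 of the 953 passed in the same direction, and 955 of the 960 knockout genes did so in wild type. None passed at 2-fold in opposite directions, and 16 genes passed at an adjusted p under 0.05 in opposite directions. Across all 19938 genes the differences correlated with r = 0.935 and with a Spearman rank correlation of 0.789. Across the 1097 genes that reached 2-fold in either genotype r was 0.990, a value that picking genes for large differences raises. These are descriptions across genes measured on the same kind of array, which are not independent replicates. Of 27 gene lists with members that passed at 2-fold in wild type, 21 had every such member pass in knockout. The exceptions were dentate granule neurons (10 of 11), CA pyramidal neurons (5 of 6), immediate early genes (5 of 6), monoamine and acetylcholine receptors (7 of 8), ionotropic glutamate receptors (3 of 5) and meninges (0 of 1). Over all gene lists (555 measured entries, with some genes listed repeatedly), 55 distinct members were at least 2-fold higher in knockout hippocampus and 81 in knockout bulb. Of all genes 2.13% and 2.69% were so. The lists were chosen with earlier results of these data known, so their counts are no measure of how regional programmes held.

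**Figure D4:**
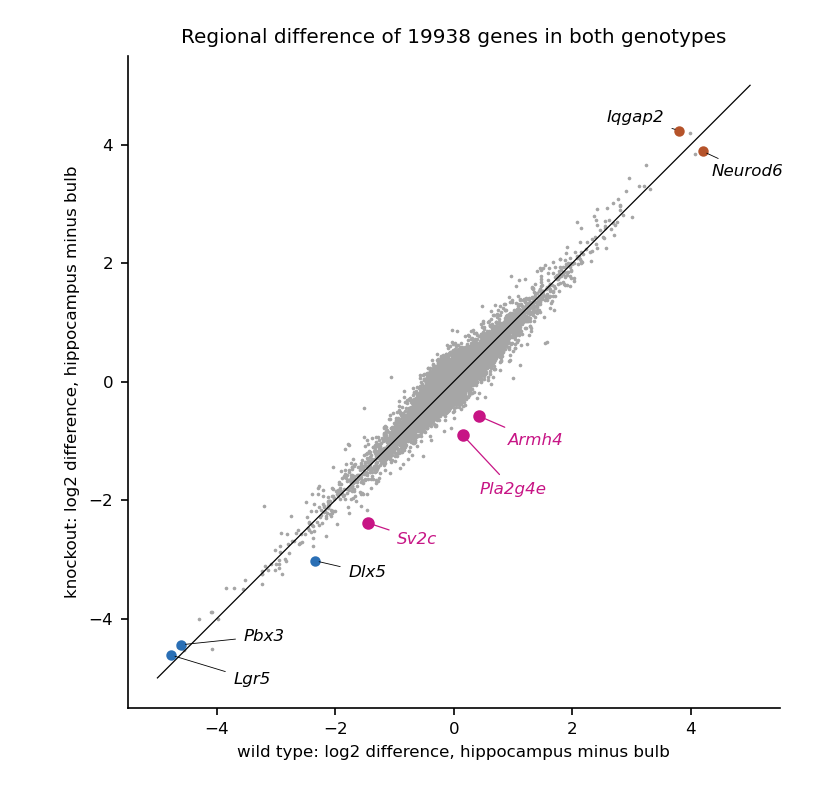
Regional log2 difference (hippocampus minus bulb) of 19938 genes in wild type (horizontal axis) and knockout (vertical axis), 1 point a gene, with the line of equal differences. Points lie along the line, with r = 0.935 for all genes and r = 0.990 for the 1097 genes picked as at least 2-fold different in either genotype. Pla2g4e, Armh4 and Sv2c, drawn in magenta, lie below it.

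The interval of the difference between genotypes shows how much change is left possible. For 937 of the 953 regional genes of wild type (98.3%), the 95% confidence interval of the knockout difference minus the wild-type difference lay within 1 on the log2 scale, and for 674 (70.7%) within 0.5. Over all 19938 genes the shares were slightly higher, at 99.5% and 76.9%. For Prox1 the interval was -0.36 to 0.25, for Neurod6 -0.63 to -0.02, for Lgr5 -0.08 to 0.40 and for Th -0.16 to 0.51. It was all positive, with a larger difference in knockout, for Iqgap2 (0.14 to 0.73), Crym (0.14 to 0.69) and Grp (0.08 to 0.90). These did not pass the adjusted test (limma adjusted p of 0.375 to 0.414). The interval spanned both signs for Cabp7 (-0.03 to 0.43), Prdm8 (-0.70 to 0.22) and Npy2r (-0.34 to 0.51). For Dlx1 it was -0.19 to 0.26, for Cdhr1 -0.23 to 0.19 and for Grik4 -0.39 to 0.15. For Npas4 it was wider, -0.11 to 1.08. The intervals of single genes are not adjusted for their number.

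In 3 genes (0.015%) the regional difference itself differed between the genotypes, each being more negative in knockout, and for 1 of them, Pla2g4e, the genotypes differed by at least 2-fold (0.00502% of the genes tested). Pla2g4e, a cytosolic phospholipase A2 that acts as an N-acyltransferase, measured 8.12, 8.13 and 8.05 in knockout hippocampus and 8.98 to 9.05 in knockout bulb. Wild-type arrays measured 6.95, 6.85 and 6.87 in hippocampus and 6.48, 6.81 and 6.91 in bulb. Both knockout tissues lay above both wild-type tissues, and the regional difference was -0.91 in knockout and 0.16 in wild type, a difference of -1.06 (SE 0.13, 95% confidence interval -1.34 to -0.79, limma adjusted p = 0.00875). Armh4, a membrane protein gene, measured 8.38, 8.47 and 8.42 in knockout hippocampus and 9.08, 8.87 and 9.06 in knockout bulb, against 8.79 to 9.11 in wild-type hippocampus and 8.46 to 8.60 in wild-type bulb. It was higher in bulb in knockout (-0.58) and higher in hippocampus in wild type (0.42), and the genotypes differed by -0.997 (SE 0.12, limma adjusted p = 0.00875). Sv2c, a synaptic vesicle glycoprotein gene, measured 7.28, 7.31 and 6.95 in knockout hippocampus, below the 8.25, 8.31 and 8.32 of wild-type hippocampus, and 9.59, 9.51 and 9.60 in knockout bulb, against 9.58, 9.80 and 9.84 in wild type. The regional difference was -2.39 in knockout and -1.45 in wild type, a difference of -0.94 (SE 0.13, limma adjusted p = 0.0318). Sv2c was the least stable of the 3: it did not pass after quantile normalization (limma adjusted p = 0.0572) and passed in 3 of the 12 fits that left out a single array, against 10 of 12 for Pla2g4e and Armh4. With the animal as a replicate block the limma test called 0 genes (1778 at an unadjusted p under 0.05, against 2124 without it, and a smallest adjusted p of 0.0908). It also called 0 without either the bulb (2412 at an unadjusted p under 0.05) or the hippocampus (1871) of animal 4. Leaving out both arrays of an animal gave 0 for each of knockout animals 4, 5 and 6 (2045, 2792 and 979 at an unadjusted p under 0.05), and the animal as a random term gave 3.

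**Figure D5:**
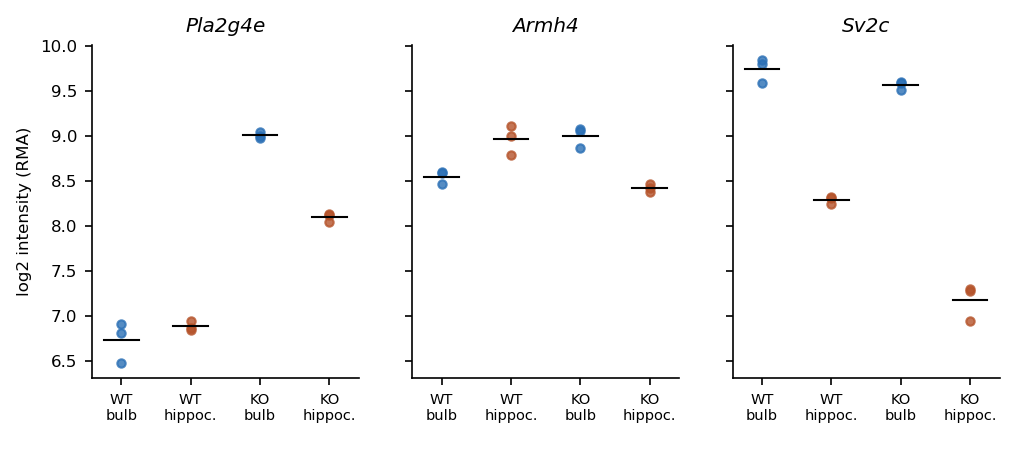
RMA log2 intensity (vertical axis, shared by the panels) of Pla2g4e, Armh4 and Sv2c on every array, with a point for each of the 3 arrays of a group and a bar for the group mean; WT is wild type and KO knockout. Pla2g4e lies above 8 in both knockout tissues and below 7 in both wild-type tissues, the order of the tissues is opposite between genotypes for Armh4, and Sv2c is lower in hippocampus, most so in knockout.

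The 7 genes of next smallest p did not pass (limma adjusted p of 0.124 to 0.136). Among them, Tnfaip6, a hyaluronan-binding protein gene, had a regional difference of -0.45 in knockout and -1.51 in wild type, Slc35f4 of -1.06 and -1.78, Iyd, the iodotyrosine deiodinase gene, of 0.65 and 1.54, and Erich5 of 1.27 and 0.47. Crhbp, which binds corticotropin-releasing hormone, measured 8.40, 8.75 and 8.69 in knockout hippocampus and 7.70, 7.93 and 7.63 in knockout bulb, a difference of 0.86, against 0.05 in wild type. The interval of the difference between genotypes was 0.49 to 1.14 for Crhbp.

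Of the genes at least 2-fold different in knockout, 5 did not pass in wild type, and the 4 with established names were genes of meninges or choroid plexus: Fmod, Slc6a13, Ttr and Kcnj13. Their spread was wide in wild type, where Ttr ranged from 8.80 to 11.66 in hippocampus and Fmod from 6.86 to 8.63. For Ttr the difference between the genotypes had an interval of -0.93 to 2.16, and for Fmod of -1.33 to 0.52. None of the 4 passed the test of that difference. In the other direction 1 gene, a predicted gene, was at least 2-fold different in wild type and did not pass in knockout.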

How the data were processed

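Biotin-labelled total RNA, extracted with Trizol, was hybridised to 1-colour arrays, per the labels' protocols. The deposited values are log2 intensities, which the authors made with RMA and the oligo package per the submitters' processing notes. RMA corrects background, quantile normalizes and summarises probes, so small signals show compressed differences. The versions used, and whether both tissues went through RMA together, are not stated in the sources. Of 35556 probe sets, 21789 had 1 gene symbol in the platform's annotation, 1621 several, and 12146 were not listed. By Entrez identifier 21698 matched RefSeq genes (assembly GRCm38.p6). Each of 999 genes with several probe sets was represented by its brightest one, by the mean of all 12 arrays. Dim genes were kept. Precision is limited by the number of arrays. The SD, over probe sets, of the difference between a pair of replicate arrays lay between 0.212 and 0.297.

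A model of the 4 group means over 12 arrays was fitted with limma 3.58.1 in R 4.3.3 (lmFit and eBayes, default settings). It gave the regional difference in each genotype and the difference between them, with Benjamini-Hochberg adjustment over 19938 genes at 0.05, and a further count required a 2-fold difference. All adjusted p-values in the text come from this fit. The script was tested on simulated data. Each knockout animal's code and title number tie its tissues together; the deviations of the tissues of animals 4, 5 and 6 from their group means correlated at 0.016, 0.018 and -0.208. In wild type, code and number disagree for a pair of animals, and both were tried as the block. The alternatives changed the block, scaling, filter, weights, probe sets, threshold or arrays.

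The gene lists (39, with 555 of 605 entries measured) and the rule for named genes were chosen with earlier results of these data known. The rule takes Rasgrf2, the 15 largest regional differences in each direction in knockout, and from each list up to 6 members that passed at 2-fold and up to 3 of smallest difference. It adds the genes with a difference between genotypes, up to 10 by p, and genes called in 1 genotype. Lists are described by counts and medians, with no test of the list. A list of blood genes had 1 measured member, Alas2, which did not pass (0.07). Figures were drawn with matplotlib 3.10.9.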

Additional observations from a re-analysis of the deposited data

Results flagged for a closer look

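In 3 genes the difference between hippocampus and bulb differed between the genotypes by the limma test of that difference. The knockout regional difference minus the wild-type one was -1.06 for Pla2g4e, -0.997 for Armh4 and -0.94 for Sv2c. Sv2c is the least stable of them, passing in 9 of 26 alternatives against 17 for each of the other two. No outlier test was made in groups of 3 arrays; each array was left out in turn instead.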

How the results depend on the processing

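Of the 960 genes at least 2-fold different in knockout, 792 (82.5%) also passed under each of 19 alternatives, and between 898 and 960 passed under any 1 of them. These 19 were the blocks, scalings, trend, weights, probe set means, knockout arrays alone, and leaving out knockout arrays or animals; the stricter test below is not among them. With the animal as a replicate block all 960 passed, and no count of regional calls moved by over 1.5 times. Counting every probe set deposited gave 6497 calls higher in bulb, 1825 at 2-fold, 1226 of them in bulb, and 1269 shared by both genotypes. The shared ones were 69.5% of the knockout calls at 2-fold, against 85.0% in the main fit. Testing against a 2-fold minimum (limma treat) gave 486 genes, 207 in hippocampus and 279 in bulb, with 435 shared, and 32 and 53 list members. The count of genes whose regional difference depended on genotype was 3. It was 0 with the replicate block by code or by number (1778 and 1888 at an unadjusted p under 0.05 in limma), with every probe set (3466) and under limma treat (0), and 12 with array weights. Leaving out arrays or animals gave 0 to 4. Of the list medians, 13 of 39 changed sign under some alternative.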

Other observations

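Probe sets that the platform's annotation does not list differed more towards the bulb than named ones. Of these 12146, 120 were at least 2-fold higher in knockout hippocampus and 626 in knockout bulb (6.14% in all). Only 269 of the 626 (43.0%) passed in wild type as well, against 497 of 587 (84.7%) for probe sets with 1 symbol. The median level of all unlisted probe sets was 6.22, against 7.32 for all probe sets with 1 symbol. For those at least 2-fold higher in bulb it was 6.89 and 8.19. What the unlisted probe sets measure was not known here.

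Of 167 vomeronasal receptor genes, 11 were higher in knockout bulb (6.59%, below the 19.9% of all genes) and none in hippocampus. At least 2-fold higher in bulb were 3 (1.80%, against 2.69% of all genes). The median level of all 167 in bulb was 4.29, low on the scale of these arrays.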
